A study of Mus musculus with 3 samples.

Results

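Genes that mark neural progenitors and radial glia were read in midbrain RNA of mice at postnatal day 3. The 9 genes were taken by symbol from the deposited count tables, which list 49585 genes: Sox2, Nes, Pax6, Hes1, Hes5, Vim, Fabp7, Neurog2 and Notch1. Each symbol belonged to 1 identifier, and each gene was detected in every library. The series held 2 libraries labelled FGR, numbered 1 and 2, and 1 wild-type (WT) library. FGR is given as the genotype in the labels, which do not spell it out. All mice were of strain C57BL/6, RNA came from frozen tissue labelled mid-brain, and no allele, agent or sex is stated. Whether the FGR pair stems from different animals is not stated, so a p-value here reflects only how far these samples spread, which may be technical. That spread is measured within the FGR pair alone, and for each gene it leans on the spread of all genes tested. Whatever is particular to the single WT library cannot be told apart from the group.

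Radial glia are the stem cells that line the ventricles of the embryonic brain, give rise to neurons and later to astrocytes, and span the tissue with a long fibre. Sox2 maintains their stem cell state, the intermediate filament proteins nestin (Nes) and vimentin (Vim) fill the fibre, and the fatty acid binding protein Fabp7 is abundant in their cytoplasm. Notch1 is a receptor that is cut when a neighbouring cell presents a ligand, and its intracellular part joins the DNA-binding protein RBPJ to switch on Hes1 and Hes5, repressors that hold back proneural factors such as Neurog2. Pax6 is a homeobox transcription factor of forebrain radial glia and also of the cerebellar granule cell lineage. Many of these genes stay on in young astrocytes, and Vim and Notch1 are active in vascular cells as well.

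Hes5 is shown as the classical Notch target and Fabp7 as the member that differed between the groups. The sequences are from RefSeq (build GRCm38.p6, both on the plus strand, bases -250 to -51 from the transcription start), and the table held windows for 8 of the 9 members. Hes1 was not among them. Capitals mark the RBPJ motif GTGGGAA, or TTCCCAC when read on the other strand, in Hes5 (chr4:154960673-154960872) and the E-box CANNTG, the motif read by proneural factors, in Fabp7 (chr10:57784673-57784872).
Hes5: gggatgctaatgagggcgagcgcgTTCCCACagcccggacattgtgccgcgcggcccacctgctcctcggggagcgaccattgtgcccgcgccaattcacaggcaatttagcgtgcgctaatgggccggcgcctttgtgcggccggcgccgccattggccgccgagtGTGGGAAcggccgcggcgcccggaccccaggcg
Fabp7: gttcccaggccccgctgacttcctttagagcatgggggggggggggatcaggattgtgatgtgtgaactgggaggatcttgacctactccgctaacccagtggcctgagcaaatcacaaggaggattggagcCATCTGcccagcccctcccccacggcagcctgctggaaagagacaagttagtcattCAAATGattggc

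On both strands, the RBPJ motif was found in 1 of 9 member windows (Pax6 has 2 starts), that of Hes5, where it began at bases -226 and -83. Of all 32817 promoter windows of this length, 4.35% held it. The E-box was present in 2 member windows, those of Fabp7, at -118 and -62, and Hes5, against 59.1% of all windows. The N-box CACNAG, a motif bound by Hes repressors, was present in 4 member windows (Fabp7, Notch1, Vim and 1 start of Pax6), against 31.1% of all windows. None of the matches in member windows overlapped another. These matches describe letters in a window and not bound sites.

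Levels were compared between genes as the deposited RPKM, reads per kilobase of the gene's listed length and of the library total. Fabp7 stood far above the others, with 293.8 and 285.0 RPKM in the FGR libraries and 393.4 RPKM in WT, and made up 79.2% of the members' summed mean RPKM. Sox2 had 25.5 and 22.7 RPKM in the FGR libraries against 26.9 RPKM in WT. Vim had 20.4 and 25.9 RPKM in the FGR libraries against 27.4 RPKM in WT. These ranges overlapped, and Sox2 was above Vim in FGR replicate 1 but below it in FGR replicate 2 and in WT. Hes5 followed with 16.4 to 19.9 RPKM over the 3 libraries, Nes with 9.30 to 10.7 RPKM, Notch1 with 3.27 to 3.62 RPKM and Hes1 with 2.17 to 2.66 RPKM. Pax6 was at 0.670 to 1.56 RPKM and Neurog2 at 0.0510 to 0.194 RPKM. Apart from Sox2 and Vim, the order was the same in the 3 libraries. The listed length exceeds the longest GENCODE M21 transcript by different amounts, so the order of close neighbours depends on the length used. It was 11694 against 4427 bases for Pax6, 4743 against 2926 bases for Vim, 14232 against 9488 bases for Notch1 and 1250 against 880 bases for Fabp7, but 2057 bases by both measures for Sox2. Per base of the longest transcript, Vim would therefore stand higher relative to Sox2 than its RPKM shows.

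**Figure D1:**
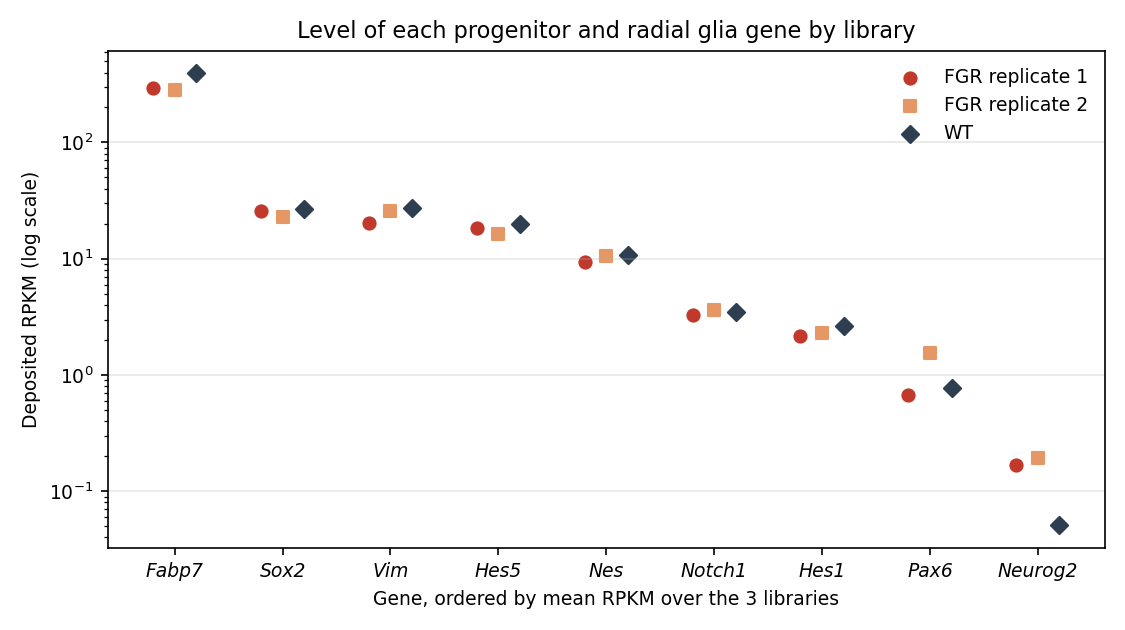
Deposited RPKM (vertical log axis) of the 9 genes in FGR replicate 1, FGR replicate 2 and WT, 1 point per library. Fabp7 lies between 285.0 and 393.4 RPKM, above all others; Pax6 is the gene whose FGR libraries lie farthest apart for its level (0.670 and 1.56 RPKM), and Neurog2 lies below 0.2 RPKM in every library.

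The question the design implies is whether these genes differed between FGR and WT midbrain. Counts were compared with edgeR's quasi-likelihood test over 25561 genes, calling those with a Benjamini-Hochberg adjusted p under 0.05, and levels below are TMM-scaled CPM, counts divided by the scaled library total. Fabp7 was the 1 of 9 members called, and it was lower in FGR; over all genes tested 4.25% were called, 1.66% higher and 2.59% lower in FGR. All 9 members passed the filter on low counts. The share of all genes at an unadjusted edgeR p under 0.05 was not counted, so such counts below stand without a background. The members' median log2 fold change was -0.12, against 0.01 over all genes tested. For 5 members (Sox2, Hes1, Hes5, Vim and Fabp7) both FGR libraries were below WT, which held for 38.0% of all genes, and for Neurog2 both were above, which held for 38.6%. Library totals were 58444481 and 46240262 counts in FGR replicates 1 and 2 and 52874311 counts in WT, so 1 count was worth 0.0172 to 0.0219 CPM.

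Fabp7 encodes the brain fatty acid binding protein, a carrier of polyunsaturated fatty acids. It had 21462 and 16472 counts in the FGR libraries against 25998 counts in WT. This gave 370.0 and 360.4 CPM in the FGR libraries, a mean of 365.2 ± 6.83 CPM (SD, n = 2), against 483.0 CPM in WT. Both FGR libraries lay well below WT and close to each other. The log2 fold change was -0.40 ± 0.09 (SE; edgeR adjusted p = 0.0225), or 1.32-fold lower in FGR. The 95% interval, not adjusted for the number of genes, ran from -0.60 to -0.21. Among the alternatives with a test, the call was lost when genes averaging under 1 CPM were left out of the test (adjusted p = 0.0735).

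Of the related carriers, Fabp5, which is widely expressed, had 275.4 and 290.6 CPM in the FGR libraries against 293.8 CPM in WT (adjusted p = 0.805). Fabp3, the heart-type protein, had 42.6 and 44.5 CPM in the FGR libraries against 50.1 CPM in WT (adjusted p = 0.143). Neither was called, and no test of Fabp7 against these genes was made.

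Markers of other cell types were read beside these values. The 7 astrocyte markers summed to 642.4 and 701.8 CPM in the FGR libraries against 846.1 CPM in WT, and 4 of 7 were called lower (Aqp4, Gfap, Gja1 and S100b). Both FGR libraries were below WT for 6 of 7 and slightly above it for Aldoc (146.7 and 152 CPM against 146.2 CPM in WT). The 6 markers of oligodendrocyte precursors summed to 283.2 and 300.3 CPM in the FGR libraries against 376.6 CPM in WT, with 3 of 6 called lower. Ependymal markers summed to 24.5 and 23.6 CPM in the FGR libraries against 38.7 CPM in WT, with 2 of 6 called lower. The 5 microglial markers summed to 54.2 and 59.8 CPM in the FGR libraries against 76.8 CPM in WT, with 2 of 5 called lower. Over all genes tested 2.59% were called lower. DESeq2 called 2 of the 7 astrocyte, 3 of the 6 oligodendrocyte precursor, 1 of the 6 ependymal and 0 of the 5 microglial markers. A robust fit called 2, 3, 3 and 2 of them. Of all 25561 genes tested, DESeq2 called 233 lower and a robust fit 723 lower. Markers of young neurons summed to 3191 and 3088 CPM in the FGR libraries against 2930 CPM in WT, and 1 of 4, Sox11, was called higher. Both FGR libraries were above WT for 2 of the 4, Sox11 and Dcx, and below it for 1, Tubb3 (1192 and 1187 CPM against 1311 CPM in WT). Dcx had 855.6 and 776 CPM in the FGR libraries against 618.5 CPM in WT (edgeR adjusted p = 0.0607). DESeq2, limma-voom and a robust fit each called 2 of the 4 neuron markers. Of all 25561 genes tested, these tools called 357, 1085 and 1232. Choroid plexus markers summed to 6.29 and 11.4 CPM in the FGR libraries against 8.82 CPM in WT, with 0 of 4 called in edgeR, DESeq2 or limma-voom and 1 (Ttr) at an unadjusted edgeR p under 0.05. Both FGR libraries were above WT for Ttr (1.26 and 4.24 CPM against 0.669 CPM in WT) and below it for 3 of the 4. The part of these cell types in the Fabp7 difference was not tested, and in bulk tissue fewer cells of a type and less RNA per cell cannot be told apart. Without Fabp7, the other 8 members summed to 295.5 and 337.8 CPM in the FGR libraries and 339.4 CPM in WT.

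Regional markers differed between the groups as well. Of 6 regional genes of the midbrain, 4 were called higher in FGR (En1, En2, Otx2 and Lhx9), and the 6 summed to 325.1 and 293.3 CPM in the FGR libraries against 197.9 CPM in WT. Of 9 markers of hypothalamus and ventral forebrain 8 were tested, and 5 were called lower. These 9 genes summed to 12.1 and 12.2 CPM in the FGR libraries against 33.6 CPM in WT. The sum hides unlike genes. Nkx2-1 had 4 and 2 counts in the FGR libraries against 263 counts in WT, Dlx1 9 and 4 against 418, and Six6 0 and 0 against 88. Six3 (6.28 and 6.37 CPM against 5.61 CPM in WT) and Otp (3.78 and 3.79 CPM against 2.90 CPM) were above WT in both FGR libraries. Over all genes tested, 1.66% were called higher and 2.59% lower in FGR. DESeq2 called 2 of the 6 midbrain genes and 2 of the 8 tested hypothalamic and ventral forebrain genes, and a robust fit 4 and 5. Of all 25561 genes tested, DESeq2 called 124 higher and 233 lower, and a robust fit 509 higher and 723 lower. The part of these regional differences in the members' values was not tested.

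**Figure D2:**
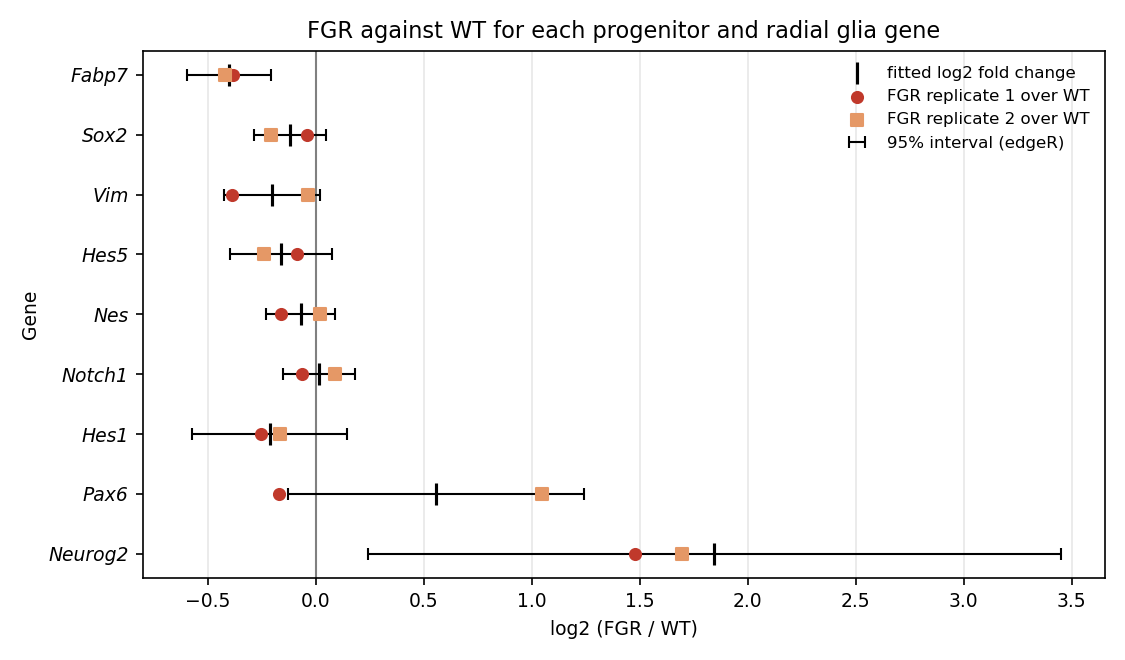
Log2 ratio of FGR over WT (horizontal axis) for the 9 genes, with the fitted fold change and its unadjusted 95% interval and the ratio of each FGR library to WT, computed with 2 counts added to each count. For Fabp7 both FGR points lie near -0.40, whereas for Pax6 the points lie at -0.17 in FGR replicate 1 and 1.05 in FGR replicate 2.

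Sox2, the transcription factor that maintains neural stem cells, had 52.9 and 47.1 CPM in the FGR libraries against 54.4 CPM in WT. FGR replicate 1 was close to WT and FGR replicate 2 lower. The log2 fold change was -0.12 (95% interval -0.29 to 0.05, edgeR adjusted p = 0.462). Sox2 lies within the long noncoding gene Sox2ot on the same strand, whose exons in GENCODE M21 share no base with it; Sox2ot had 1571 and 1235 counts in the FGR libraries and 1480 counts in WT. The list of Sox2, its close relatives Sox1 and Sox3 and the gliogenic factor Sox9 had 0 of 4 genes called in edgeR, DESeq2 or limma-voom, 1 (Sox3) at an unadjusted edgeR p under 0.05, and a median log2 fold change of -0.22, with both FGR libraries below WT for all 4, against 38.0% of all genes tested.

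Nes, the progenitor filament gene, had 60.2 and 68.0 CPM in the FGR libraries against 67.2 CPM in WT, so the groups overlapped (log2 fold change -0.07, 95% interval -0.23 to 0.09, edgeR adjusted p = 0.686). Vim had 97.7 and 124.4 CPM in the FGR libraries against 127.8 CPM in WT. Both FGR libraries were below WT, FGR replicate 1 by far more than FGR replicate 2, and the gap within the FGR pair was larger than that of 90.1% of 18638 genes at a mean CPM of at least 1. The fitted change of Vim was -0.20 (95% interval -0.43 to 0.02, edgeR adjusted p = 0.322). Vimentin is also made by fibroblasts and endothelium: the 6 meningeal fibroblast markers summed to 166.6 and 254.8 CPM in the FGR libraries against 400.0 CPM in WT, and the 7 endothelial markers to 135.9 and 137.8 CPM in the FGR libraries against 178.1 CPM in WT. In edgeR 5 of 6 fibroblast and 4 of 7 endothelial markers were called lower, against 2.59% of all genes tested. DESeq2 called 1 and 0 of them, and a robust fit 1 and 4. Of all 25561 genes tested, DESeq2 called 233 lower and a robust fit 723 lower. The part of these cells in the Vim values was not tested.

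Of the 9 intermediate filament genes, Gfap and Nefh were called, both lower, and the median log2 fold change was -0.24. At an unadjusted edgeR p under 0.05 there were 5 of 9 (with Synm, Nefl and Nefm). Of the 9, limma-voom called 3, DESeq2 called 1 and edgeR with no filter on low counts called 5. Of all 25561 genes tested, limma-voom called 1085 and DESeq2 357. With no filter, 2057 of all 35837 genes tested were called. Gfap, the filament of astrocytes and of late radial glia, had 16.9 and 23.1 CPM in the FGR libraries against 48.3 CPM in WT (log2 fold change -1.28 ± 0.14, edgeR adjusted p = 1.21e-04). A robust fit did not call Gfap (adjusted p = 0.130). Nefh, the heavy neurofilament subunit of mature axons, had 20.7 and 18.3 CPM in the FGR libraries against 27.1 CPM in WT (edgeR adjusted p = 0.0370). DESeq2 did not call Nefh (adjusted p = 0.147), nor did the filter at a mean CPM of 1 (adjusted p = 0.0994). The most abundant of the list, the light neurofilament gene Nefl, had 383.5 and 386.7 CPM in the FGR libraries against 453.9 CPM in WT (adjusted p = 0.173).

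Notch1 had 46.8 and 52.1 CPM in the FGR libraries against 49.0 CPM in WT, with WT between the FGR libraries. Its log2 fold change was 0.01 with a 95% interval from -0.15 to 0.18 (edgeR adjusted p = 0.957), and its sign turned when libraries were scaled by their totals (-0.03) or when no filter on low counts was used (-0.0028). Of the 4 Notch receptors 0 were called in edgeR, DESeq2 or limma-voom, and 0 had an unadjusted edgeR p under 0.05. Their median log2 fold change was -0.10. Notch3, a receptor of mural cells as well as of progenitors and the most abundant receptor per length, had 38.6 and 43.8 CPM in the FGR libraries against 44.1 CPM in WT (adjusted p = 0.601). Notch2, named after its values were seen, had 29.9 CPM in FGR replicate 1 and 42.9 CPM in FGR replicate 2 against 43.5 CPM in WT (edgeR adjusted p = 0.363, 0.0470 with no filter on low counts and 0.838 in a robust fit). As for Vim, most of the gap to WT lay in FGR replicate 1. Exons of Notch1 share 1068 bases with the gene 0610009E02Rik and 414 bases with Gm13568 on the other strand, and reads of these cannot be told apart from Notch1 reads where counting ignored the strand.

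Among the 5 ligands of Notch receptors 0 were called in edgeR, DESeq2 or limma-voom, 0 had an unadjusted edgeR p under 0.05, and the median log2 fold change was 0.06. Jag2, the most abundant of them per length, had 50.2 and 45.5 CPM in the FGR libraries against 50.0 CPM in WT (edgeR adjusted p = 0.718). The 17 genes for processing and nuclear action of Notch, among them RBPJ and its mastermind partners, had 0 called genes by those tools, 2 (Maml3 and Rfng) at an unadjusted edgeR p under 0.05, and a median of 0.10. The mastermind gene Maml3, named after its values were seen, had 40.2 and 38.7 CPM in the FGR libraries against 32.1 CPM in WT (log2 fold change 0.30, edgeR adjusted p = 0.0669), and was called in a robust fit (adjusted p = 0.0492).

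Hes1 had 4.45 and 4.72 CPM in the FGR libraries, a mean of 4.59 ± 0.196 CPM (SD, n = 2), against 5.31 CPM in WT. Hes5 had 25.1 and 22.6 CPM in the FGR libraries against 26.7 CPM in WT. Both repressors were below WT in both FGR libraries by small margins. The log2 fold change of Hes1 was -0.21 (95% interval -0.57 to 0.15, edgeR adjusted p = 0.559). That of Hes5, whose promoter window is printed above, was -0.16 (95% interval -0.40 to 0.08, adjusted p = 0.491). Exons of Hes5 share 433 bases with the antisense gene Gm20421, at 609 and 445 counts in the FGR libraries and 596 counts in WT.

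The list of 6 Notch target genes, which holds Hes1 and Hes5, had 0 called genes in edgeR, DESeq2 or limma-voom, 1 at an unadjusted edgeR p under 0.05 and a median log2 fold change of -0.19, with 5 of 6 below WT in both FGR libraries, against 38.0% of all genes tested. Nrarp, a target that feeds back to damp Notch signals, was named after its values were seen. It had 24.1 and 21.8 CPM in the FGR libraries against 28.2 CPM in WT (log2 fold change -0.30, edgeR adjusted p = 0.155). Among 6 other Hes and Id genes, Id4 was the 1 called and was higher in FGR. Id4 encodes a protein that binds basic helix-loop-helix factors and keeps them off DNA. It had 121.4 and 110.3 CPM in the FGR libraries against 94.2 CPM in WT (log2 fold change 0.30 ± 0.07, edgeR adjusted p = 0.0382). The Id4 call was lost in DESeq2 (adjusted p = 0.164), with scaling by library totals (adjusted p = 0.0615) and without genes averaging under 1 CPM (adjusted p = 0.0994).

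**Figure D3:**
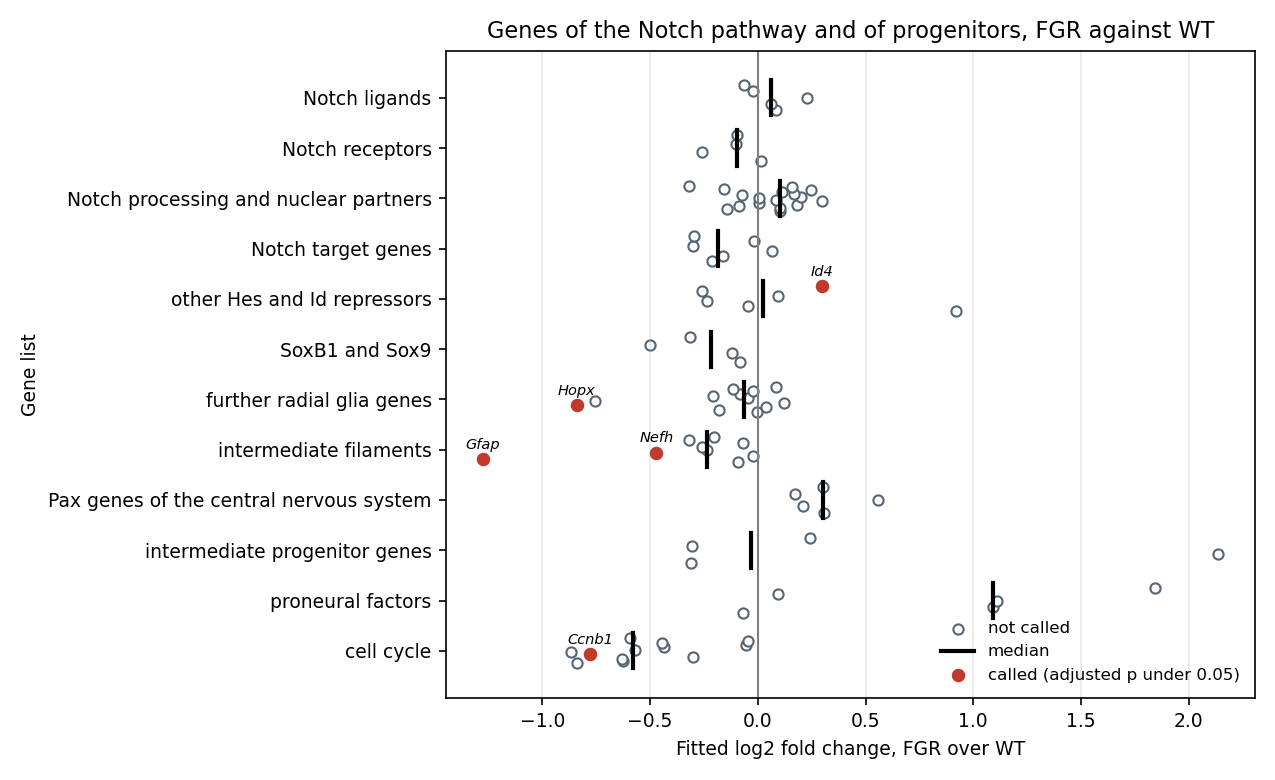
Fitted log2 fold change of FGR over WT (horizontal axis) for the tested genes of 12 lists, 1 point per gene, with the list median as a bar and called genes filled. The lists of Notch ligands, receptors, processing genes and targets hold no filled point and lie between -0.32 and 0.30; Id4, Hopx, Gfap, Nefh and Ccnb1 are the filled points.

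Neurog2, a proneural factor that drives progenitors to become neurons, was close to the limit of detection. It had 22 and 20 counts in the FGR libraries against 6 counts in WT, with exact Poisson 95% intervals of 13.8 to 33.3, 12.2 to 30.9 and 2.20 to 13.1 counts that cover counting error only. In CPM this was 0.379 and 0.438 in the FGR libraries against 0.111 in WT. Both FGR libraries were above WT. The log2 fold change was 1.85 ± 0.75, the largest among the members, but did not pass the threshold (edgeR adjusted p = 0.201; unadjusted p = 0.0272). Its relative Neurog1 had 0 counts in every library. Of 6 proneural genes 5 were tested and 0 were called in edgeR, DESeq2 or limma-voom, with 2 (Neurog2 and Neurod1) at an unadjusted edgeR p under 0.05.

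Pax6 differed more within the FGR pair than between the groups. It had 458 counts in FGR replicate 1 and 843 counts in FGR replicate 2 against 479 counts in WT. In CPM this was 7.90 and 18.4 in the FGR libraries against 8.90 in WT. FGR replicate 1 was slightly below WT, whereas FGR replicate 2 was 2.33-fold above FGR replicate 1. That gap was larger than that of 99.8% of 18638 genes at a mean CPM of at least 1. The fitted log2 fold change of 0.56 (95% interval -0.13 to 1.24, edgeR adjusted p = 0.389) therefore averages libraries on opposite sides of WT. Without FGR replicate 2 the log2 ratio was -0.17, and without FGR replicate 1 it was 1.05. Pax6 was called when no filter on low counts was used (adjusted p = 0.00935), but not in a robust fit (adjusted p = 0.873) or in DESeq2 (adjusted p = 0.964). The antisense gene Pax6os1 had 8 and 2 counts in the FGR libraries and 6 counts in WT, and its exons share no base with those of Pax6.

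Among the tested cerebellar granule cell markers, 6 of 7 had their highest level in FGR replicate 2, as did 2 of the 4 intermediate progenitor genes, against 31.3% of all genes tested. The exceptions were Cbln1, at 24.3 and 34.6 CPM in the FGR libraries against 36.6 CPM in WT, and Btg2 and Gadd45g, which were highest in WT. Barhl1 was counted among the 6 although its FGR libraries were nearly equal (25.53 and 25.57 CPM). Neurod1, a factor of differentiating neurons and the most abundant of the proneural list, had 3.55 and 10.1 CPM in the FGR libraries against 3.12 CPM in WT (edgeR adjusted p = 0.153, and 3.98e-07 with no filter on low counts). The 3 genes that follow were named after their values were seen. Atoh1, which specifies granule cell precursors, had 6 and 41 counts in the FGR libraries against 12 counts in WT. Eomes, a marker of intermediate progenitors in the cortex and of unipolar brush cells in the cerebellum, had 45 and 141 counts in the FGR libraries against 23 counts in WT (edgeR adjusted p = 0.0792, 5.89e-08 with no filter and 0.719 in a robust fit). Zic1, a gene of dorsal progenitors and granule cells, had 56.7 and 94.5 CPM in the FGR libraries against 60.8 CPM in WT (edgeR adjusted p = 0.406, 0.00425 with no filter and 0.884 in a robust fit).

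The 8 cerebellar granule cell markers summed to 123.7 CPM in FGR replicate 1 and 187.3 CPM in FGR replicate 2 against 133.1 CPM in WT. Of these, 7 were tested and Barhl1 was the 1 called, higher in FGR, at 25.5 and 25.6 CPM in the FGR libraries against 15.1 CPM in WT. Gabra6, a receptor subunit of mature granule cells, was at 2 and 3 counts in the FGR libraries and 1 count in WT. The part of these cells in the Pax6 values was not tested. Among the other Pax genes, Pax5, the most abundant of the list per length, had 45.6 and 34.4 CPM in the FGR libraries against 34.6 CPM in WT (edgeR adjusted p = 0.409), with FGR replicate 1 as the high library. Of 6 Pax genes 5 were tested, 0 were called in edgeR, DESeq2 or limma-voom, and 0 had an unadjusted edgeR p under 0.05.

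**Figure D4:**
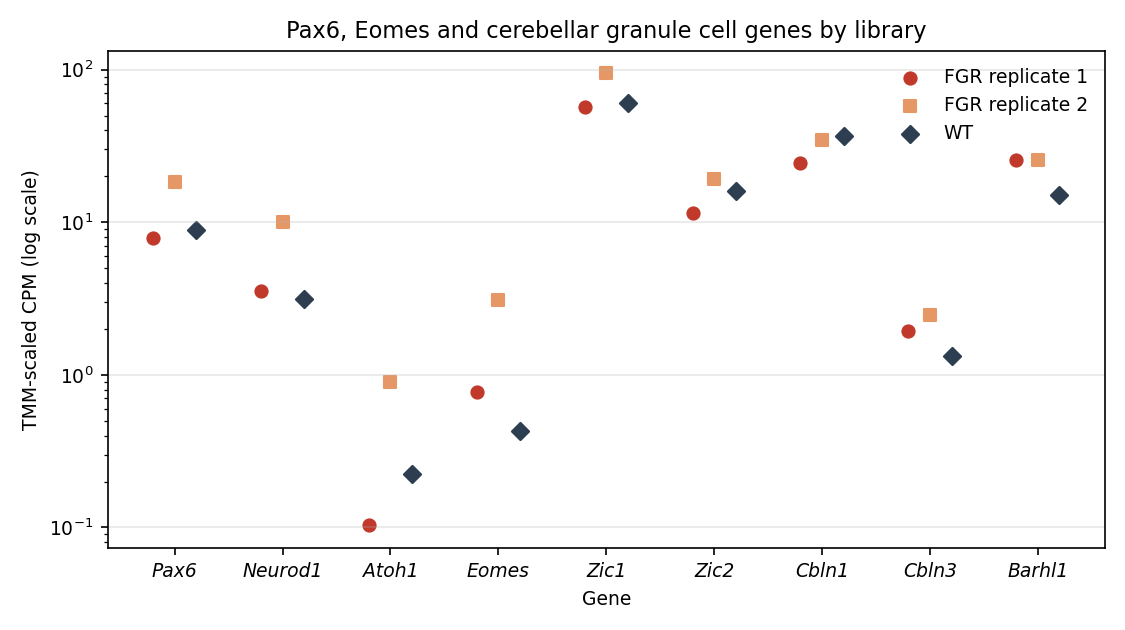
TMM-scaled CPM (vertical log axis) of Pax6, Eomes and 7 cerebellar granule cell genes in FGR replicate 1, FGR replicate 2 and WT, 1 point per library. FGR replicate 2 is the highest library for Pax6 (18.4 CPM), Neurod1 (10.1 CPM), Atoh1, Eomes and Zic1, whereas Barhl1 is equally high in both FGR libraries.

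Of 12 further radial glia genes that were not among the members 1 was called, lower in FGR, and the median log2 fold change was -0.06. The called gene was Hopx, a cofactor gene of quiescent radial glia and astrocytes, with 3.83 and 5.91 CPM in the FGR libraries against 8.66 CPM in WT (log2 fold change -0.84 ± 0.20, edgeR adjusted p = 0.0333). Hopx was not called by DESeq2 (adjusted p = 0.210), by a robust fit (adjusted p = 0.0963) or without genes averaging under 1 CPM (adjusted p = 0.125). Ptprz1, a receptor phosphatase of radial glia and oligodendrocyte precursors and the most abundant of the 12 per length, had 588.9 and 549.3 CPM in the FGR libraries against 658.2 CPM in WT (edgeR adjusted p = 0.294). Of 4 genes of intermediate progenitors 0 were called in edgeR, DESeq2 or limma-voom, with 2 (Eomes and Btg2) at an unadjusted edgeR p under 0.05. Btg2, an antiproliferative gene that marks divisions which yield neurons, had 12.1 and 11.8 CPM in the FGR libraries against 14.8 CPM in WT (adjusted p = 0.224).

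Among 12 cell cycle genes Ccnb1, the mitotic cyclin, was the 1 called and was lower in FGR, at 3.69 and 4.94 CPM in the FGR libraries against 7.38 CPM in WT (log2 fold change -0.78 ± 0.18, edgeR adjusted p = 0.0281). DESeq2 did not call Ccnb1 (adjusted p = 0.273), nor did the filter at a mean CPM of 1 (adjusted p = 0.101). At an unadjusted edgeR p under 0.05 there were 7 of 12 (Top2a, Ccnb1, Cdk1, Mcm2, Aurkb, Birc5 and Cenpf). Of the 12, DESeq2 called 0, a robust fit 1, limma-voom 2 and edgeR with no filter on low counts 9. Of all 25561 genes tested, DESeq2 called 357, a robust fit 1232 and limma-voom 1085. With no filter, 2057 of all 35837 genes tested were called. The share of all genes at the unadjusted threshold was not counted. Both FGR libraries were below WT for 10 of the 12 genes, against 38.0% of all genes tested. Relative to WT, the median log2 ratio of the list was -0.99 for FGR replicate 1 and -0.21 for FGR replicate 2. The proliferation marker Mki67, named after its values were seen, shows the gap within the pair, with 11.6 CPM in FGR replicate 1 and 23.4 CPM in FGR replicate 2 against 23.7 CPM in WT (edgeR adjusted p = 0.389, 0.0074 with no filter on low counts and 0.871 in a robust fit). Pcna, the most abundant of the list per length, had 45.3 and 49.9 CPM in the FGR libraries against 49.1 CPM in WT (adjusted p = 0.818). FGR replicate 1 was thus the low library for Mki67, as it was for Vim and Notch2, while Sox2, Hes5 and Fabp7 were slightly lower in FGR replicate 2.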

How the data were processed

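Total RNA of 3 midbrain libraries (2 FGR, 1 WT) was sequenced after TruSeq library preparation, per the labels' protocols. Per the submitters' processing notes, HISAT2 was used. The sources used here do not give its version, the build or the counter. The authors deposited a raw read count, a length and an RPKM value per gene for 49585 genes, and the RPKM column could be recomputed from the other columns. From the deposited counts, FGR was tested against WT with edgeR 4.0.16 (R 4.3.3) by a two-sided quasi-likelihood test after filterByExpr at a minimum count of 10 and TMM scaling, with 1 residual degree of freedom from the FGR pair, so WT was assumed to vary like FGR. Each gene's spread was moderated by that of all genes tested, with 13.02 prior degrees of freedom. Standard errors were derived from the fold change and F. Ratios of single libraries used 2 added counts. Alternatives used DESeq2 1.42.0, limma 3.58.1 (voom), a robust fit, other scalings and filters, removal of the abundant RNA genes Rn7s1 and Rn7s2, and removal of each FGR library. The edgeR steps were checked on simulated data. Identifiers of the members were found in GENCODE M21 (GRCm38), used for overlaps and transcript lengths.

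The members and gene lists were chosen with earlier results of these data known. In text, all members are named, and of each other list the most abundant gene per length and up to 3 called genes with the smallest p; any other gene named is a cell type marker, is marked as named after its values were seen, or is a list member (such as Fabp3, Fabp5, Neurog1, Sox3 and Rfng) also named after its values were seen. Some genes the rule would name are not reported here.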

Additional observations from a re-analysis of the deposited data

How the results depend on the processing

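Over all genes, 1087 were called (424 higher and 663 lower in FGR), against 2057 (695 and 1362) with no filter on low counts, 301 (100 and 201) at a mean CPM of at least 1 and 357 (124 and 233) in DESeq2. Scaling by library totals called 1027 lower genes, and 24.4% of its calls were higher, against 39.0% with TMM. Of the members, 1 was called, against 3 with no filter (Fabp7, Pax6 with adjusted p = 0.00935 and Vim with adjusted p = 0.0390) and 0 at a mean CPM of at least 1 (edgeR, where 1 of 8 tested members had an unadjusted p under 0.05); the cause was not tested. The log2 fold change of Notch1 turned to -0.0272 with library totals and to -0.0028 with no filter. Fabp7 ranged from -0.44 to -0.38 over all alternatives, and its adjusted p from 9.71e-05 to 0.0735. Leaving out an FGR library leaves 1 library a group and no test. The log2 ratio, with 2 counts added to each count, then ran from -0.17 to 1.05 for Pax6, from 1.48 to 1.70 for Neurog2, from -0.16 to 0.02 for Nes and from -0.07 to 0.09 for Notch1. The fitted 1.85 of Neurog2 was made without these 2 added counts, so its ratios and its fit are unlike measures. No paired analysis was possible because the labels give no pairing of FGR with WT libraries and WT has 1 library. Neurog2 rests on 6 to 22 counts a library, and the single WT library and 1 residual degree of freedom limit every test.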
